A study of Mus musculus and Rattus norvegicus with 53 samples.

Results

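The neuregulin and EGF ligands and the ErbB receptors were followed in Schwann cells (SCs) of the injured mouse sciatic nerve. The group was set by name and holds 10 genes of the 24016 in the mouse count files. The ligands are Nrg1, Btc, Hbegf, Areg, Ereg and Tgfa, and the receptors are Egfr, Erbb2, Erbb3 and Erbb4. The 47 mouse libraries come from tdTomato+ cells sorted from tdTom SC mice, in which a Cre that acts in the SC lineage turns on the reporter, so that every group, intact nerves included, carries the same transgenes. Male and female mice aged 6 to 8 weeks had one sciatic nerve transected, and the nerve of the other side served as the intact control. In the first experiment, SCs of intact nerves (iSCs), of the distal stump (dSCs) and of the bridge, the new tissue that joins the stumps (bSCs), were collected on day 6. Each of its 3 regions had 4 libraries, and every library combined nerves of 3 mice. In the second, each library came from 1 nerve: 5 of iSCs, 3 of dSCs on each of 6 days (1, 2, 4, 6, 8 or 10), and 3 of bSCs on each of days 4, 6, 8 and 10.

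The ErbB receptors are tyrosine kinases that act in pairs. Egfr binds EGF, Tgfa, Areg, Btc, Ereg and Hbegf, Erbb4 binds neuregulins as well as Btc, Hbegf and Ereg, Erbb2 binds no ligand of its own, and Erbb3 binds neuregulins but signals poorly without a partner. In SCs the pair of Erbb2 and Erbb3 receives neuregulin 1 from axons, a signal needed for the survival of SC precursors and for the thickness of the myelin sheath, and after injury SCs are known to make neuregulin 1 themselves. The ligands are made as membrane proteins, and proteases of the ADAM and BACE families release them from the cell surface. Downstream, adaptors such as Grb2 pass the signal to the RAS and ERK kinases.

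Between 11435463 and 22617054 reads per pooled library and between 9240883 and 22426128 per single-nerve library were counted on genes. The 5 markers of SCs reported here (Sox10, S100b, Ngfr, Foxd3 and Gap43) were above 0 in every group, and their summed level was 532 to 834 CPM (counts scaled to a common library total) in pooled iSCs, 807 to 2121 in dSCs and 505 to 1226 in bSCs. Markers of other cells were present too. The sum of 10 macrophage markers was 185 to 4633 CPM in pooled iSCs, 8159 to 13351 in dSCs and 2151 to 6251 in bSCs, and the sum of 7 fibroblast markers was 8704 to 48045, 28881 to 41988 and 13146 to 26537 CPM, with none of these markers at 0 in all libraries of a group. The iSC library of pool 5 stood apart, with the highest macrophage (4633) and fibroblast (48045) and the lowest SC (532) sums of the 4. In such bulk libraries, fewer cells of a type and less RNA per cell cannot be told apart. Sorted cells of other types are not separated from SCs here, and their part in the results was not tested. Their markers are given beside the results with which they moved.

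Btc, Areg and Ereg are neighbours in the genome. In the mm9 build, Ereg lies at chr5:91503643-91522675 and Areg at chr5:91568641-91577458, both on the plus strand, and Btc at chr5:91786287-91831939 on the minus strand, and these 3 were the only protein-coding genes of the GENCODE annotation in a span of 328 kb. Tgfa lies at chr6:86145420-86225151, Egfr at chr11:16652206-16818161 and Erbb2 at chr11:98273784-98299030, all on the plus strand. Nrg1 (chr8:32928500-33119581), Hbegf, Erbb3 (chr10:128004579-128026708) and Erbb4 (chr1:68078760-69154633) lie on the minus strand. Exons of Nrg1 overlap those of Gm17443, and exons of Erbb2 overlap those of 1810046J19Rik, and since the libraries carry no strand, reads of the overlapping parts cannot be assigned to one gene. The promoters of Btc and Tgfa, the ligands with the largest rise and the largest fall, are shown because of this contrast. Each covers 250 bases before and 50 after the gene start, from RefSeq with build GRCm38.p6, at chr5:91402945-91403244 on the minus strand for Btc and chr6:86194972-86195271 on the plus strand for Tgfa.
Btc: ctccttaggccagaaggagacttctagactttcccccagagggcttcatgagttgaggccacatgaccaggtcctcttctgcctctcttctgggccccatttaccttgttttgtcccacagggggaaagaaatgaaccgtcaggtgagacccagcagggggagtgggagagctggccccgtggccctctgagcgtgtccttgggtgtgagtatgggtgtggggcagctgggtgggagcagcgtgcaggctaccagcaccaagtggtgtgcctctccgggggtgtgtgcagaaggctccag
Tgfa: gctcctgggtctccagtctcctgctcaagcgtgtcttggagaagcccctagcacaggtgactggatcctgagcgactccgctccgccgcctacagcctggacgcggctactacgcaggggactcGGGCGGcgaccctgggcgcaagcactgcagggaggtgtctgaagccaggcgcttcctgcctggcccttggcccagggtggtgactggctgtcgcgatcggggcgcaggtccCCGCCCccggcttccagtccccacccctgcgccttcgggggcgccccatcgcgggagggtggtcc
Capitals mark matches on either strand to an AP-1 site (TGANTCA), a GC box (GGGCGG) or a TATA box (TATAAA), motifs that do not overlap one another. Tgfa held 2 GC boxes, which start 126 and 15 bases before the gene start. No match was found in the Btc window, which has 60.3% G and C bases and 5 CpG dinucleotides, against 70.7% and 24 in Tgfa. Of 32851 promoters of the same length, 35.7% held a GC box, 7.81% an AP-1 site and 13.6% a TATA box. Among the 6 members in the promoter table, the AP-1 letters were in none of the windows, 1 GC box was in Egfr, 2 were in Areg together with a TATA box, and Erbb2 and Erbb4 had no match to any of the 3 motifs.

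The members differed widely in how often they were counted. Hbegf, Egfr and Erbb2 had counts in all 47 libraries, Erbb3 in 46, Btc in 45 and Tgfa in 35. Nrg1 was counted in 22 libraries with at most 142 reads, Areg in 6 with at most 44, Ereg in 5 with at most 293 and Erbb4 in 3 with at most 28. Areg, Ereg and Erbb4 did not pass the filter on low counts in either experiment, which left 7 of the 10 members for the tests among 13751 genes in the pooled and 15519 in the single nerves.

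**Figure D1:**
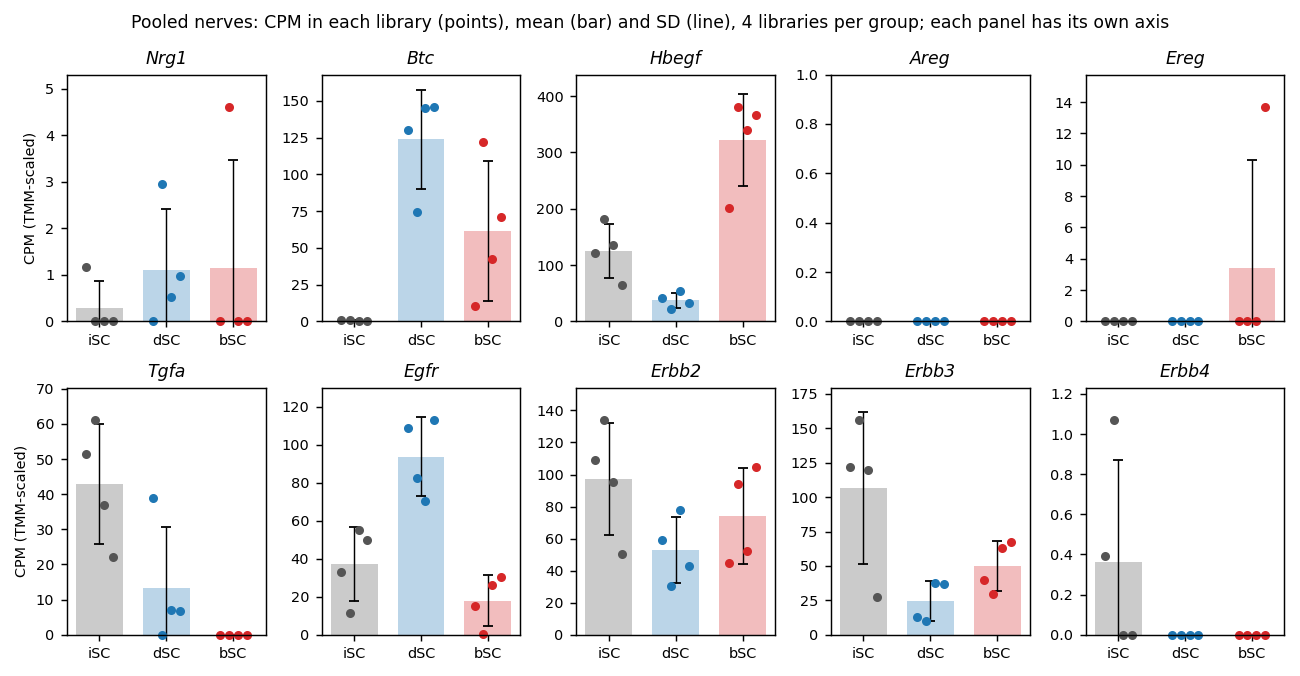
CPM (vertical axes, scaled by TMM factors, one scale per panel) of the 10 members in pooled iSCs, dSCs and bSCs, with points for the 4 libraries of each group, bars for the mean and lines for the SD. Btc was at most 0.858 CPM in iSCs and at least 10.2 CPM in the other groups, and Tgfa was at 0 in all 4 bSC libraries.

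Betacellulin (Btc), a ligand of Egfr and Erbb4, was almost absent from intact nerves and abundant after transection. The 4 iSC pools had 0.858, 0.712, 0.303 and 0 CPM of Btc. The dSC pools had 130, 74.3, 145 and 146 CPM, and the bSC pools 10.2, 122, 42.3 and 71.2 CPM. No library of an injured group came near an intact one, while bSCs and dSCs overlapped. By edgeR's quasi-likelihood test with Benjamini-Hochberg adjustment, Btc rose 254-fold in dSCs (log2 difference 7.99 ± 0.93 SE, adjusted p = 0.000583) and 126-fold in bSCs (6.98 ± 0.90, adjusted p = 0.000453), folds that rest on an intact level of a few reads. Between bSCs and dSCs the log2 difference was -1.01 ± 0.68 (adjusted p = 0.435). Of the 10 macrophage markers 2 were higher in dSCs than in iSCs and 0 in bSCs, with median log2 differences of 1.75 and 1.07. In these pools the sum of 4 neutrophil markers also moved with Btc. It was 5.7 to 8.18 CPM in iSCs, 36.6 to 46.1 in dSCs and 9.33 to 26.9 in bSCs. S100a9 was at 0 in all iSC and bSC pools. In single iSC nerves the neutrophil sum was 1.94 to 7.89 CPM. In single dSC nerves it was 44.7 to 97.7 CPM on day 1, 14.7 to 45.7 on day 2 and 37.9 to 57.5 on day 4. It was 10.8 to 69.3 CPM on day 6, 6.56 to 29.2 on day 8 and 8.23 to 37.5 on day 10. The part of these cells in the rise of Btc was not tested.

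In the single nerves Btc was first called on day 2. The 5 iSC nerves had 6.7, 7.17, 0, 3.92 and 0.153 CPM of Btc and the 3 dSC nerves of day 1 had 2.87, 10.3 and 6.82 CPM, so that these groups overlapped (log2 difference 0.93 ± 0.97, adjusted p = 1). On day 2 the values were 175, 58.4 and 87.6 CPM, all above every intact and day 1 nerve. Btc was then between 29.3 and 200 CPM in every dSC nerve up to day 10. Against iSCs, the log2 difference was 4.93 ± 1.03 on day 2 (adjusted p = 0.0189), 4.29 ± 1.01 on day 4 (0.0213), 4.93 ± 1.03 on day 6 (0.0153), 4.97 ± 1.03 on day 8 (0.0213) and 4.32 ± 1.01 on day 10 (0.0491, all edgeR). Of all genes tested, 0.445%, 1.73%, 0.554%, 0.303% and 0.354% passed on these days, and 0.18% on day 1. The test for any difference among the 6 dSC days was not passed by Btc (adjusted p = 0.732, unadjusted 0.0532). The 5 SC markers summed to 97.6 to 298 CPM in iSC nerves and 47.5 to 339 in dSCs of day 1. Their sum was 199 to 803 CPM on day 2, 648 to 957 on day 4 and 755 to 1528 on day 6. It was 1376 to 1618 CPM on day 8 and 666 to 1510 on day 10. By edgeR's test 0 of these 5 were higher than in iSCs on days 1 and 2, and 1 on each later day. How far this bears on Btc was not tested. Macrophage markers rose over the same days too. They summed to 270 to 1007 CPM in iSC nerves, 2061 to 5023 on day 1, 2334 to 5305 on day 2, 8087 to 12031 on day 4 and 2030 to 10150 CPM from day 6 to day 10. Of the 10, 3 were higher than in iSCs on day 1, and 3, 9, 6, 1 and 2 on the days on which Btc was called, and their part in the rise of Btc was not tested. Single libraries decided these calls. That of day 2 was lost without its replicate 0 (adjusted p = 0.0768) or iSC replicate 4 (0.0503), that of day 4 without its replicate 2 (0.098), that of day 6 without its replicate 0 (0.0552) or 1 (0.0534), that of day 8 without its replicate 0 (0.104), and that of day 10 without any library but iSC replicate 3 (0.0522 to 0.31). The log2 difference stayed between 3.44 and 5.46 throughout.

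In bSC nerves Btc was also above all intact nerves on each day. The bSC nerves had 26.7, 46.9 and 9.38 CPM on day 4 and 26.1, 34 and 18.7 CPM on day 6. On day 8 they had 24.7, 8.63 and 159 CPM, and on day 10 they had 60.4, 25.9 and 116 CPM. The spread within days 8 and 10 was thus wider than the distance between the day means. The log2 difference from iSCs was 2.98 ± 0.97 on day 4 (adjusted p = 0.122), 2.90 ± 0.97 on day 6 (0.136), 4.19 ± 1.01 on day 8 (0.0595) and 4.26 ± 1.01 on day 10 (0.0268, all edgeR), so that Btc rose by the test on day 10 only. Of all genes tested, 1.57%, 1.33%, 0.303% and 1.3% passed on these days. That call was lost without bSC replicate 0 (adjusted p = 0.0553) or 3 (0.169) or iSC replicate 4 (0.0596) or 5 (0.0532), and on day 8 Btc passed without bSC replicate 1 (0.0362). Of the 10 macrophage markers 7, 4, 2 and 6 were higher in bSCs than in iSCs on days 4, 6, 8 and 10. Their sums were 919 to 11725 CPM. The SC marker sum in bSC nerves was 274 to 654 CPM on day 4 and 241 to 1003 on day 6. It was 211 to 1505 CPM on day 8 and 325 to 1023 on day 10. The part of either was not tested here. Differences among the bSC days alone were not tested, and the test of whether the difference between bridge and stump varied with the day gave an adjusted p of 1 for Btc.

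**Figure D2:**
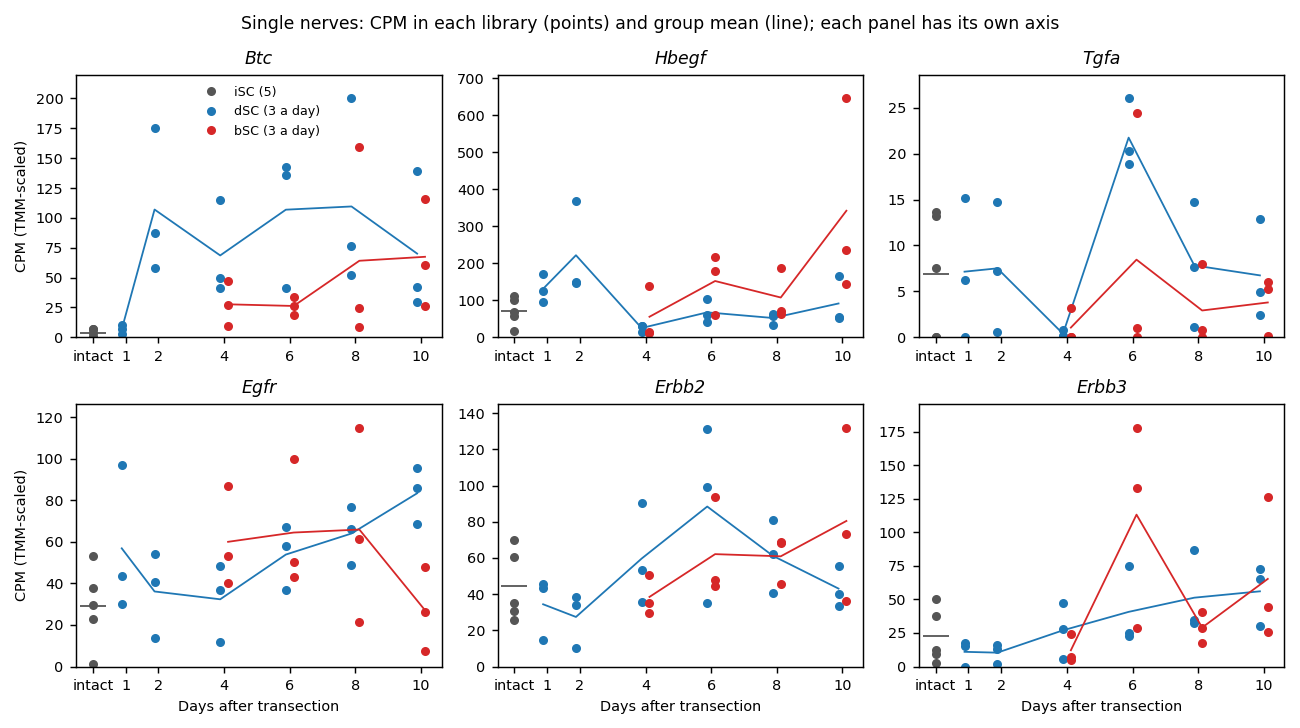
CPM (vertical axes, one scale per panel) of 6 members in each single-nerve library against days after transection, with lines through the means of dSCs and bSCs and a dash for the mean of the 5 intact nerves. Btc was at most 10.3 CPM in intact and day 1 nerves and at least 29.3 CPM in dSCs from day 2.

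Hbegf, the heparin-binding ligand of Egfr and Erbb4, was lowest in the distal stump and highest in the bridge of pooled nerves. The iSC libraries had 122, 181, 135 and 64.8 CPM of Hbegf. The dSC libraries had 41.8, 22.7, 53.2 and 32.2 CPM, and the bSC libraries 202, 381, 339 and 367 CPM. The 3 groups did not overlap, with dSCs lowest and bSCs highest. Hbegf was 8.59-fold higher in bSCs than in dSCs (log2 difference 3.10 ± 0.37, edgeR adjusted p = 0.00161), and this difference held when any library was left out (adjusted p at most 0.00805) and with the pool number as a block (adjusted p = 0.0242). Against iSCs, Hbegf fell by 1.75 ± 0.35 on the log2 scale in dSCs (adjusted p = 0.0128) and rose 2.56-fold in bSCs (1.36 ± 0.35, adjusted p = 0.019). Both of these calls were lost with the pool number as a block (adjusted p = 0.0809 and 0.105), and the second also without bSC pool 2 (0.0538). Of the 10 macrophage markers 0 differed between bSCs and dSCs by edgeR's test, with a median log2 difference of -1.17. The sum of 5 mural cell markers was 209 to 265 CPM in dSC pools, below all bSC (317 to 1037) and iSC pools (314 to 1453), as Hbegf was, and 0 of the 5 passed in any of the 3 comparisons. Of 5 endothelial markers 1 was higher in bSCs than in dSCs and 1 lower in dSCs than in iSCs. The part of these cells in the differences of Hbegf was not tested.

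In single nerves Hbegf varied more within groups. The iSC nerves had 102, 112, 16.7, 68.3 and 58.8 CPM. The dSC nerves had 96, 172 and 126 CPM on day 1, 369, 148 and 149 CPM on day 2 and 30.6, 14.2 and 30.9 CPM on day 4. All nerves of day 2 lay above all intact nerves and all nerves of day 4 below all of days 1 and 2. From day 6 to day 10 the dSC values ranged from 34.7 to 167 CPM, overlapping the intact range and reaching above its highest value of 112 CPM. The test among the 6 dSC days gave an unadjusted p of 0.00748 for Hbegf, the only member with one under 0.05, and an adjusted p of 0.531 (edgeR). The log2 difference from iSCs was 1.64 ± 0.66 on day 2 (edgeR adjusted p = 0.407) and -1.50 ± 0.72 on day 4 (0.29), and neither passed. On day 6 it was -0.08 ± 0.68 (0.995), where the dSC pools of that day had -1.75 ± 0.35.

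In the bSC nerves Hbegf was 140, 15.5 and 11.5 CPM on day 4, 217, 60 and 180 on day 6, 188, 70.8 and 64.3 on day 8, and 237, 144 and 646 on day 10. Only on day 10 were all 3 bSC nerves above all intact nerves, and this difference of 2.26 ± 0.67 on the log2 scale did not pass (adjusted p = 0.0887). The bSC and dSC libraries of 10 animals could be paired by the labels, and Hbegf was higher in the bridge in 9 of the 10. The exception was an animal of day 4 with 11.5 CPM in the bridge and 30.9 in the stump. Some of the 9 were near ties, with 15.5 against 14.2, 60 against 59.5 and 70.8 against 63.7 CPM. Over days 4, 6, 8 and 10 the log2 difference between bSCs and dSCs was 1.32 ± 0.38 (unadjusted p = 0.00176, adjusted p = 0.169), and with the animal as a block it was 1.43 ± 0.38 (adjusted p = 0.078). The difference over these days passed the threshold in neither form. It had the sign of that in the pooled nerves, which are of day 6 only, and a smaller value. On day 6 alone the single nerves had 1.17 ± 0.77 (edgeR adjusted p = 0.769). The distance between the experiments on day 6 did not pass in the joint fit (adjusted p = 0.715).

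**Figure D3:**
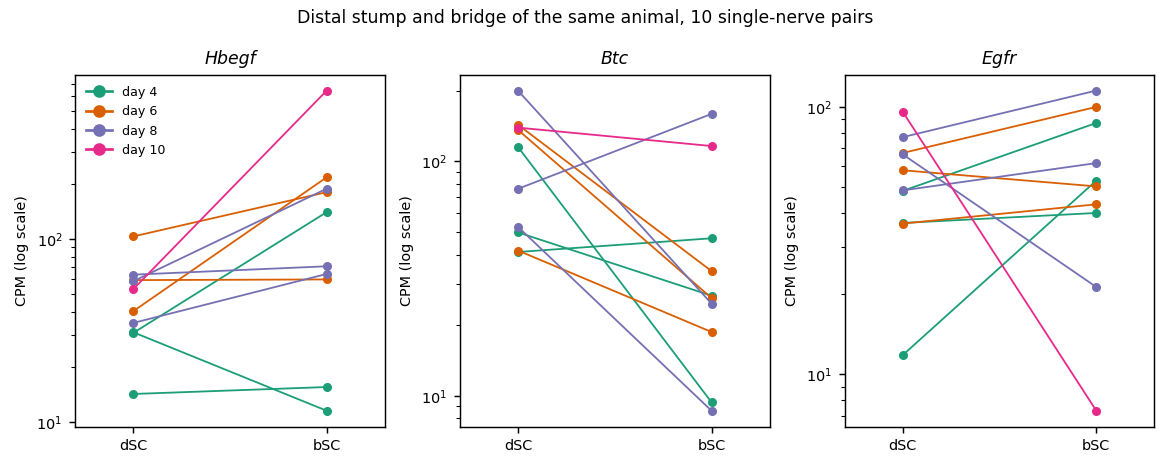
CPM on a log axis of Hbegf, Btc and Egfr in the distal stump (left) and the bridge (right) of the same animal, with a line for each of 10 animals coloured by day. Hbegf was higher in the bridge in 9 of 10 animals, Egfr in 7 and Btc in 2.

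Tgfa, a ligand of Egfr, was present in intact pooled nerves and not detected in the bridge. The iSC pools had 51.5, 61.1, 37 and 22 CPM. The dSC pools had 39, 0, 7.09 and 6.86 CPM, and all 4 bSC pools were at 0. The iSC and bSC libraries therefore did not overlap, while the dSC libraries spread between them. Taking 3 reads per library as the level that a count of 0 still allows, Tgfa was at least 228-fold lower in bSCs than in iSCs (edgeR adjusted p = 0.00425) and at least 70.5-fold lower than in dSCs (adjusted p = 0.0201). The bound against dSCs rests on pool 1 and was 24.7-fold without it. The second call was lost with the pool number as a block (adjusted p = 0.113), and 1 dSC pool was itself at 0. Between dSCs and iSCs the log2 difference was -1.70 ± 1.27 (adjusted p = 0.632). Markers of other cells fell in the bridge too. Perineurial markers summed to 800 to 1091 CPM in iSCs, 197 to 682 in dSCs and 256 to 458 in bSCs, with 2 of 5 lower and 1 higher in bSCs than in iSCs. Of 6 markers of T cells and mast cells 3 could be tested and 2 of these were lower in bSCs, with sums of 3.05 to 670 CPM in iSCs and 0 to 16.9 in bSCs, where Cd3e, Cd3g and Cd3d were at 0. Of 7 fibroblast markers 2 were lower in bSCs than in iSCs. Within iSCs, pool 2 had the highest Tgfa with the lowest T cell and mast cell (3.05) and fibroblast (8704) sums. Pool 5 had the lowest Tgfa with the highest of both (670 and 48045). The perineurial sum was 852 CPM in pool 2 and 800 in pool 5. The SC marker sum was 834 CPM in pool 2 and 532 in pool 5. In pools 1 and 4, with 51.5 and 37 CPM of Tgfa, the SC marker sum was 658 and 716 CPM. The dSC pool with 39 CPM of Tgfa had a T cell and mast cell sum of 0, and so had the dSC pool with Tgfa at 0. The part of all these cells in the fall of Tgfa was not tested.

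Single nerves of the same day did hold Tgfa in the bridge. On day 6 the bSC nerves had 0, 24.4 and 0.965 CPM and the dSC nerves 20.3, 18.9 and 26 CPM, against 0, 0, 13.2, 7.59 and 13.6 CPM in iSCs. The 3 dSC nerves of day 6 lay above all intact nerves, and those of day 4, with 0.194, 0.173 and 0.801 CPM, had the lowest mean of the dSC days. In the other dSC nerves Tgfa ranged from 0 to 15.2 CPM and in the other bSC nerves from 0 to 7.98 CPM. No comparison of single nerves was passed by Tgfa, and the test of a change among the dSC days gave an adjusted p of 1 (edgeR).

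Nrg1, which encodes the neuregulin that binds Erbb3 and Erbb4, was counted in few intact libraries. All 5 single iSC nerves were at 0, and of the iSC pools 1 had 1.17 CPM and 3 were at 0. In pooled dSCs it was 0, 2.96, 0.517 and 0.97 CPM, and in bSCs 1 pool had 4.61 CPM and 3 were at 0. In single dSC nerves Nrg1 was above 0 in 12 of 18 libraries and reached 5.98 CPM on day 1, and in bSC nerves it was above 0 in 5 of 12 and reached 11.5 CPM on day 6. All 3 bSC nerves of day 10 were at 0. Nrg1 thus had reads in 1 of 9 intact and in 21 of 38 injured libraries, a difference that was not tested, at levels of 1 to 142 reads per library.

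With 3 reads per library as the floor, the mean of Nrg1 in dSCs was at least 8.16-fold higher than in intact single nerves on day 1, 9.73-fold on day 2, 6.48-fold on day 4, 5.25-fold on day 6, 3.38-fold on day 8 and 5.81-fold on day 10. In bSCs the bound was 8.61-fold on day 4, 13.5-fold on day 6 and 9.9-fold on day 8. Single libraries carried these bounds. Without the highest library of the group, the mean fell below the floor, so that no bound was left, in dSCs of days 4, 8 and 10 and in bSCs of day 6, while the bound was 1.72-, 4.59- and 3.15-fold in dSCs of days 1, 2 and 6 and 2.96- and 6.04-fold in bSCs of days 4 and 8. None of these differences passed edgeR's test, with adjusted p between 0.161 and 0.539. DESeq2 called all 9 of them, in a comparison with a group in which every library is at 0. In the pooled nerves the log2 difference was 1.91 ± 2.42 for dSCs and 1.95 ± 2.42 for bSCs against iSCs (adjusted p = 0.825 and 0.673).

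Areg and Ereg, ligands of Egfr, were at or near 0. Areg had no read in any pooled library and 1 to 44 reads in 6 single nerves, with its highest level, 3.72 CPM, in a bSC nerve of day 4. Ereg reached 13.7 CPM (293 reads) in bSC pool 5, with the other 3 bSC pools at 0, and 10.3 CPM (238 reads) in a bSC nerve of day 10. In the single nerves it was also 5.04 CPM in a bSC nerve of day 4 and at most 0.282 CPM in 2 dSC nerves. Both genes were at 0 in all 9 iSC libraries.

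Of the receptors, Erbb3 and Erbb2 had the highest levels per length in pooled intact nerves. In CPM per kb of exon, pooled iSCs had 18.7 ± 6.73 of Erbb2, 17.7 ± 9.2 of Erbb3, 3.3 ± 1.73 of Egfr and 0.0295 ± 0.0408 of Erbb4 (SD, n = 4). Erbb2 and Erbb3 did not differ beyond their spread. In pooled dSCs the levels per kb were 10.1 ± 3.94 for Erbb2, 8.28 ± 1.81 for Egfr and 4.08 ± 2.47 for Erbb3, and in bSCs 14.2 ± 5.73, 1.58 ± 1.18 and 8.29 ± 3.02 in the same order (SD, n = 4). In these pools the mean of Egfr thus stood above that of Erbb3 in dSCs and below it in bSCs and iSCs. In single nerves the means kept this order in iSCs, while after injury the order of Egfr and Erbb3 varied with the day. Intact single nerves had 8.53 ± 3.77 of Erbb2, 3.72 ± 3.4 of Erbb3 and 2.56 ± 1.7 of Egfr (SD, n = 5), the last 2 of which did not differ beyond their spread. In dSC nerves of day 6 Egfr had 4.76 ± 1.38 and Erbb3 6.77 ± 4.89, and Egfr was also below Erbb3 on days 4, 8 and 10 and above it on days 1 and 2. In bSC nerves Egfr was above Erbb3 on day 4 (5.3 ± 2.14 against 2.02 ± 1.8) and day 8 (5.82 ± 4.15 against 4.82 ± 1.86, SD, n = 3) and below it on days 6 and 10. These are orders of means and were not tested. In dSCs of day 6 and bSCs of day 8 the means did not differ beyond their spread. Of the ligands, Hbegf in the pools was at 53 ± 20.2 CPM per kb in iSCs and 136 ± 34.6 in bSCs, and Btc at 44.3 ± 12.1 in dSCs, all above every receptor, which were at most 18.7.

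Erbb3, the neuregulin receptor of SCs, was lower in the distal stump of pooled nerves. The iSC pools had 122, 156, 120 and 27.3 CPM. The dSC pools had 13.2, 10.2, 37.5 and 37.1 CPM, and the bSC pools 39.7, 29.6, 63.1 and 67.2 CPM. Pool 5 of iSCs, at 27.3 CPM, lay within the range of the injured groups, and it is the intact library with the lowest sum of SC markers. Erbb3 fell by 2.12 ± 0.56 on the log2 scale in dSCs (edgeR adjusted p = 0.0454). Without that library it fell by 2.42 (adjusted p = 0.00865), without any of the 7 others the call was lost (adjusted p up to 0.138), and with the pool number as a block the value was -2.52 ± 0.77 (adjusted p = 0.154). In bSCs the log2 difference from iSCs was -1.10 ± 0.55 (adjusted p = 0.211). Of the 5 SC markers, Sox10, a transcription factor of the SC lineage, was lower and Ngfr, a neurotrophin receptor, higher in dSCs, and in bSCs Sox10 and S100b, a calcium-binding protein, were lower and Ngfr higher by the same test. Their median log2 difference was 0.23 in dSCs and -1.39 in bSCs, and their part in the difference of Erbb3 was not tested.

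In single nerves no difference of Erbb3 from intact nerves passed the test. The iSC nerves had 37.5, 12.2, 9.56, 50.3 and 2.45 CPM, all below 3 of the 4 intact pools. On days 1 and 2 the dSC nerves had 0 to 17.6 CPM, on day 4 they had 27.9, 5.35 and 47.7 CPM, and on day 10 they had 72.6, 65.1 and 30.4 CPM. The bSC nerves ranged from 4.83 CPM on day 4 to 178 CPM on day 6. The means over dSC nerves went from 11 CPM on day 1 to 56.1 CPM on day 10. The median sum of the 5 SC markers over the 6 dSC days was 111, 602, 766, 1340, 1517 and 1061 CPM. In iSC nerves it was 135 CPM, and its part in the values of Erbb3 was not tested. Erbb3 did not pass edgeR's test among dSC days (adjusted p = 0.907) or any comparison with iSCs (adjusted p at least 0.235).

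Erbb2, the partner of Erbb3, kept a narrower range. The iSC pools had 109, 134, 95.4 and 50.4 CPM, the dSC pools 59.4, 30.7, 77.9 and 42.7 CPM and the bSC pools 45, 94.1, 52.2 and 105 CPM. All 3 groups overlapped. The log2 difference from iSCs was -0.88 ± 0.39 in dSCs (adjusted p = 0.275, unadjusted 0.0423) and -0.39 ± 0.39 in bSCs (adjusted p = 0.584). In single nerves Erbb2 lay between 10 and 132 CPM with 25.9 to 70 CPM in iSCs, and its comparisons with iSCs had adjusted p from 0.426 to 1. Over the 11 group means of single nerves, Erbb2 and Erbb3 had the highest correlation of any pair of tested members (Pearson's r = 0.765). It is given as a description of 11 groups and was not tested.

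Egfr, the receptor of Btc, Hbegf and Tgfa, had its highest levels in the distal stump of pooled nerves. The dSC pools had 109, 82.7, 70.5 and 113 CPM. The iSC pools had 32.8, 11.7, 55 and 50 CPM and the bSC pools 14.9, 0.293, 26 and 30.4 CPM. No dSC pool overlapped either other group. None of the tests was passed: the log2 difference was 1.33 ± 0.81 for dSCs against iSCs (adjusted p = 0.495), -1.06 ± 0.81 for bSCs against iSCs (0.443) and -2.39 ± 0.84 for bSCs against dSCs (0.11). That the last of these did not pass depends on bSC pool 2, since without this pool the adjusted p was 0.0454. DESeq2 called the same difference with that pool included (-2.43, adjusted p = 0.0245). Fibroblast markers summed to 28881 to 41988 CPM in the dSC pools and to at most 26537 CPM in the bSC pools. They summed to 8704 to 48045 CPM in the iSC pools, and of the 7 markers 2 were lower in bSCs than in dSCs. Macrophage markers summed to 8159 to 13351 CPM in the dSC pools, 185 to 4633 in the iSC pools and 2151 to 6251 in the bSC pools. Of the 10 macrophage markers 2 were higher in dSCs than in iSCs and 0 differed between bSCs and dSCs. The neutrophil markers summed to 36.6 to 46.1 CPM in dSC, 5.7 to 8.18 in iSC and 9.33 to 26.9 in bSC pools. The part of these 3 cell types in the values of Egfr was not tested.

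In single nerves Egfr was 1.26 to 53.3 CPM in iSCs and 68.6 to 95.8 CPM in dSCs of day 10, the only day on which no dSC nerve overlapped the intact ones (log2 difference 1.52 ± 0.69, edgeR adjusted p = 0.54). In the bSC nerves of day 10 it was 47.9, 26.1 and 7.31 CPM, below all dSC nerves of that day. With the animal as a block the difference between bSCs and dSCs on day 10 was -3.84 ± 1.00 (adjusted p = 0.082), which rests on the 1 animal of day 10 that could be paired. On days 4 to 8 bSCs and dSCs overlapped. Erbb4, the second receptor of neuregulins, had 5 and 21 reads in 2 intact pools, 28 reads in a dSC nerve of day 1 and none in the other 44 libraries.

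Counted over the pooled comparisons, 3 of the 7 members tested passed in dSCs against iSCs (Btc higher, Hbegf and Erbb3 lower), where 5.32% of all genes passed. In bSCs against iSCs 3 passed (Btc and Hbegf higher, Tgfa lower), against 14.7% of all genes, and in bSCs against dSCs 2 passed (Hbegf higher, Tgfa lower), against 5.43%. The members whose libraries did not overlap between groups numbered 3, 3 and 2 in the same order, where 17%, 25% and 15.4% of all genes did not overlap. In the single nerves all 5 calls over the dSC days, of 7 members on 6 days, and the 1 call over the bSC days were those of Btc, against 0.594% and 1.13% of all genes and days. Between bSCs and dSCs, 0 members passed edgeR's test over days 4 to 10, where 0.103% of all genes did, 1 member (Hbegf) had an unadjusted p under 0.05, and DESeq2 called that 1. Within single days 0 passed as well, where 0.00483% of genes and days did (0% on days 4 and 8, 0.00644% on day 6 and 0.0129% on day 10), and day 10 gave 2 members (Hbegf and Nrg1) with an unadjusted p under 0.05, of which DESeq2 called Nrg1. Among the dSC days 0 passed, against 0.0644% of genes, while Hbegf had an unadjusted p under 0.05 and was called by DESeq2. For a change of the difference between bridge and stump with the day, 0 members and 0% of the 15519 genes passed in edgeR, no member had an unadjusted p under 0.05, and DESeq2 called 0 members.

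**Figure D4:**
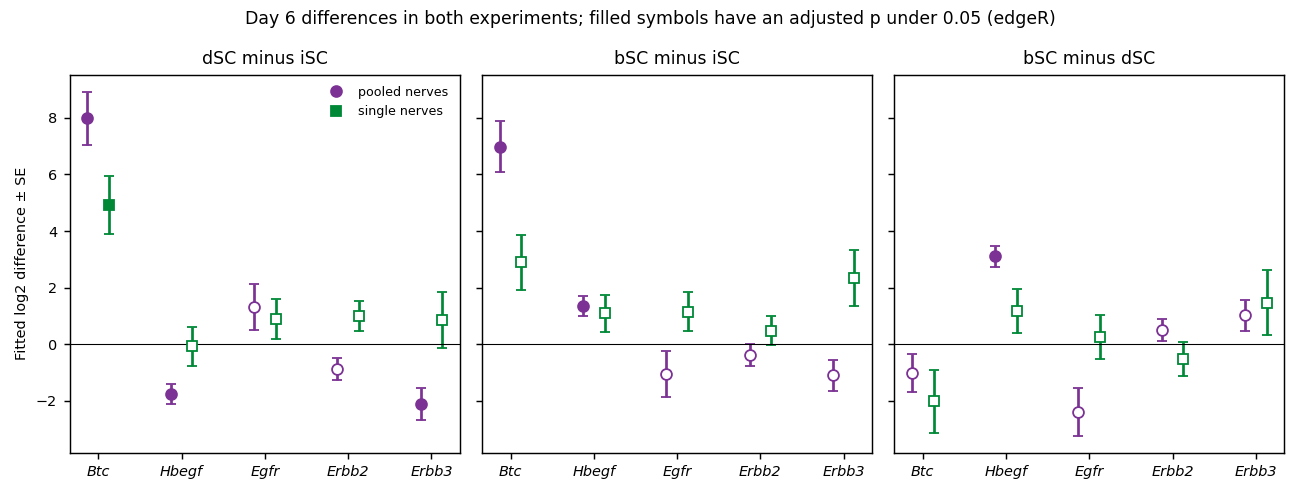
Fitted log2 differences with their SE for 5 members on day 6 in pooled (circles) and single (squares) nerves, one panel for each comparison of regions, with filled symbols for an adjusted p under 0.05 in edgeR. Btc lay above 0 against iSCs in both experiments, while Erbb3 was at -2.12 in pooled and 0.86 in single dSCs.

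The 2 experiments were compared at day 6 in a single fit, added after the data were seen. Btc had a larger rise in pooled nerves, by 3.05 ± 1.49 on the log2 scale in dSCs (adjusted p = 0.862) and 4.05 ± 1.53 in bSCs (0.316), beside an intact level of 0.468 ± 0.391 CPM in pooled and 3.59 ± 3.44 CPM in single nerves (SD, n = 4 and 5). For Erbb3 the pooled minus single difference was -2.99 ± 1.06 in dSCs (unadjusted p = 0.00944, adjusted 0.776) and -3.45 ± 1.06 in bSCs (unadjusted 0.00346, adjusted 0.274). For Tgfa in bSCs it rests on a group at 0 and had an adjusted p of 0.247. For Hbegf the pooled minus single difference was -1.69 ± 0.70 in dSCs against iSCs (unadjusted p = 0.0234, adjusted 0.828). It was 0.23 ± 0.70 in bSCs against iSCs (adjusted 0.993) and 1.92 ± 0.75 in bSCs against dSCs (unadjusted 0.0175, adjusted 0.715). No member passed this test in edgeR, in which 0 to 3 of 15066 genes did per comparison, and the intact levels of Erbb3, 107 ± 55.4 CPM in pooled and 22.4 ± 20.4 CPM in single nerves (SD, n = 4 and 5), differed in the same direction as the SC markers, whose sum was 97.6 to 298 CPM in single iSC nerves. Endothelial markers summed to 1290 to 3080 CPM in single iSC nerves and 116 to 506 in iSC pools. Perineurial markers summed to 900 to 2483 CPM in single iSC nerves and 800 to 1091 in iSC pools. Fibroblast sums overlapped, with 20941 to 27742 CPM in single iSC nerves and 8704 to 48045 in iSC pools. Pooling, the amount of nerve per library and the mix of cells cannot be told apart here.

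Other genes of the pathway were read from lists of 49 genes, of which 46 were tested in pooled nerves. In dSCs against iSCs 2 were higher and 3 lower, or 10.9% beside 5.32% of all genes, with a median log2 difference of -0.14 against -0.02 over all genes. Adam10, a protease that sheds Btc and other ligands, fell from 796 ± 242 to 287 ± 49.9 CPM (log2 difference -1.47, edgeR adjusted p = 0.00705). Grb2, the adaptor that joins ErbB receptors to RAS, rose 2.2-fold from 41 ± 5.65 to 90 ± 14.9 CPM (adjusted p = 0.0377), and Spred1, an inhibitor of RAS signalling, rose 3.29-fold (0.0354). Egr1 and Fos, transcription factors that respond to ERK, fell by 2.18 and 2.23 on the log2 scale (adjusted p = 0.0421 and 0.0436), from intact levels that ranged from 179 to 1509.9 CPM for Egr1 and overlapped with dSCs. In single dSC nerves of day 6 both lay above the intact mean, with 451 against 257 CPM for Egr1 and 2002 against 1697 CPM for Fos, by log2 differences of 0.81 ± 0.58 and 0.24 ± 0.52 that did not pass (adjusted p = 0.594 and 0.918).

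In bSCs against iSCs 1 of the 46 was higher and 5 were lower, or 13%, no more than the 14.7% of all genes, with a median of -0.26 against -0.16 over all genes. Adam10 fell to 293 ± 49.6 CPM (adjusted p = 0.00311), and Gab1, a docking protein of Egfr signalling, fell 4.79-fold from 216 ± 71 to 45.2 ± 18 CPM (0.00344). Egr1 and Fos fell by 2.44 and 2.40 on the log2 scale (0.0122 and 0.0158), and Braf, a kinase between RAS and ERK, by 2.39 (0.0372). The 1 gene that rose was Nras, a RAS protein, by 2-fold (0.0484), named after its value was seen. In bSCs against dSCs 3 were lower and none higher, or 6.52%, close to the 5.43% of all genes. They were Grb2 (log2 difference -1.19, adjusted p = 0.0314), Spred1 (-1.74, 0.0339) and Spry2, an inhibitor of receptor tyrosine kinases (-1.59, 0.0343). Grb2 and Spred1 thus stood near their intact level in the bridge, with 39.4 ± 11.4 and 37.9 ± 16.8 CPM. With the pool number as a block, 3 of the 5 genes of the first comparison still passed (Adam10, Egr1 and Fos), 4 of the 6 of the second (with Gab1) and 0 of the 3 of the last. In single nerves edgeR called 0 of the 47 pathway genes tested in each of the 17 comparisons, with 0 to 6 genes at an unadjusted p under 0.05, and DESeq2 called up to 3. The bSC nerves of day 6 and the iSC nerves had 142 ± 111 and 130 ± 86.7 CPM of Gab1 (SD, n = 3 and 5). They had 323 ± 115 and 337 ± 94.8 CPM of Adam10. Their means were 284 and 257 CPM for Egr1, 1064 and 1697 for Fos, and 20.7 and 26.2 for Braf. With the animal as a block, 2 genes passed between bSCs and dSCs over days 4 to 10 (Gab2 and Spry1), named after their values were seen.

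The genes most like each member over the 11 group means of the single nerves were taken by Pearson's r on log2 CPM. For Btc they were Nav2 (r = 0.969), Gnl2 and Rassf1, for Hbegf Rpl7l1 (0.943), Tra2b and Prss57, and for Erbb3 Matn2 (0.961), Ctnna1 and Vps37b. Erbb2 was most like Sox2ot (0.941), Egfr most like Ccar2 (0.933), Nrg1 most like Cpne2 (0.934) and Tgfa most like Tnfsf8 (0.926). With 11 points and 15519 genes, values of this size are given as a ranking only.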

How the data were processed

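Schwann cells sorted for tdTomato were profiled with Smart-seq2, which amplifies full-length cDNA by PCR and carries neither strand nor molecular identifiers. Per the labels and methods, the authors aligned the reads with TopHat 2.0.11 to mm9, used HTSeq to count reads on genes and deposited the raw counts of each lane, without normalization. HTSeq's categories for reads on no gene were set aside, after which 39.13% to 47.11% of the uniquely aligned reads of a library lay on genes, as were 92 ERCC spike-ins. Lanes of a library were summed. Counts of 9240883 to 22617054 per library limit precision. Each ± is an SD over libraries or an SE of the fit, and so includes the spread between libraries, while the floor of 3 reads covers counting error only.

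Differential expression was tested in R 4.3.3 with edgeR 4.0.16 (TMM normalization, filterByExpr, quasi-likelihood F-test, 1 fit per experiment over all its groups) with Benjamini-Hochberg adjustment over all genes tested and a threshold of 0.05. The 10 members, the pathway lists and the marker lists were chosen with earlier results of these data known. The pathway genes named are, for each comparison, up to 5 with the smallest adjusted p among those that passed. CPM values are scaled by TMM factors, and levels per kb use the union of exons of GENCODE vM1. A library at 0 was given a floor of 3 reads. Promoters of 6 members were matched by symbol in a RefSeq table. The tests were checked on simulated counts.

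Settings tried besides were DESeq2 1.42.0, edgeR scaled by the size factors of DESeq2, all genes kept whatever their counts, the study's filter (at least 100 counts in 85% of the libraries), only the 2 groups compared, the replicate numbers as a block, and leaving out each library. A covariate for 1 or 2 lane files, leaving out 4 single-nerve libraries with fewer than 11500 genes and the joint fit of both experiments were chosen after seeing the data. The labels give iSC, dSC and bSC pools of a number the same animal identifier, and likewise the bSC and dSC libraries of a nerve, so both were taken as pairs. Deviations from the group means correlated by -0.0143 on average over 10 pairs of pools and by 0.167 over 9 pairs of nerves. 1 bSC library of day 10, whose labels disagree on its number, was left out of the pairs. P-values measure the spread between these libraries. The 3 genes most like a member were taken by Pearson's r over group means. Rat libraries of the series were not used here. Some genes of the SC marker list are not reported here, and the sums and counts of that list leave them out.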

Additional observations from a re-analysis of the deposited data

Results flagged for a closer look

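Each member was examined in groups of 4 or 5 for a library whose gap to its nearest neighbour took up most of the range of the group (Dixon's ratio above the 95% critical value). For normally distributed values, chance alone marks about 1 in 20 groups. Of the 28 pairs of member and group searched 3 were marked. With 1 library above 0 and the others at 0, the ratio is 1 whatever the value. The share marked therefore cannot be set against that rate. In pooled iSCs, pool 1 had 1.17 CPM of Nrg1 (15 reads) and the other 3 pools were at 0. In pooled bSCs, pool 2 had 4.61 CPM of Nrg1 (63 reads) and the others were at 0. In pooled bSCs, pool 5 had 13.7 CPM of Ereg (293 reads) and the others were at 0. All 3 are groups in which a single library had reads of a scarce transcript.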

How the results depend on the processing

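In pooled nerves Btc against iSCs, and Hbegf between bSCs and dSCs, passed under each of the 6 other settings, with adjusted p up to 0.0174 and 0.0242. With a replicate block for the pool number, 1 member instead of 3 passed in dSCs against iSCs (Btc), and 1 instead of 2 in bSCs against dSCs (Hbegf). In a fit of only the 2 groups compared, 1 member passed between bSCs and dSCs, where Tgfa was below the filter on low counts and so was not tested. In the single nerves, DESeq2 gave 11 calls in place of 5 over the dSC days and 8 in place of 1 over the bSC days, 9 of them of Nrg1 against iSCs at 0, and 1 in place of 0 over days 4 to 10, within single days and among the dSC days. With the M number as a replicate block there were 0 calls over both sets of days. This number does not pair nerves of different animals (mean correlation 0.0164 over 122 pairs). Under the study's filter there were 0 too, since it leaves Hbegf, Egfr and Erbb2 only. Over the dSC days 1 of the 5 Btc calls was lost with the size factors of DESeq2 (day 10, adjusted p = 0.051) and 1 without the 4 libraries with the fewest genes (day 2, 0.0616). Over the bSC days, no filter gave 2 calls and leaving out the 4 libraries with the fewest genes gave 3. Leaving out each library gave 3 to 5 calls over the dSC days and 0 to 2 over the bSC days, and 2 to 3 in each pooled comparison. The animal as a block changed no call of a member (0 over days 4 to 10), and no called difference changed sign. Of 109 pairs of member and comparison that no setting called, 34 took the opposite sign under at least 1 alternative. The cause of these changes was not tested. Over all genes, DESeq2 called 1393, 3114 and 1939 genes in the 3 pooled comparisons in place of 732, 2022 and 746, and the block 287, 968 and 236. Fits of the 2 groups alone called 485 in the last. Between bSCs and dSCs over days 4 to 10, 16 genes were called, 236 with the animal as a block, 583 by DESeq2, 92 without the 4 libraries, 30 without a filter, 25 with the size factors of DESeq2 and 8 under the study's filter. Within single days the count was 3, with 232, 1235 and 20 under the first 3 of these. Summed over the dSC and bSC days, edgeR made 553 and 699 calls against iSCs and DESeq2 3985 and 4615, with 1168 in bSCs under the M number and 1096 without the 4 libraries. Among the dSC days DESeq2 called 208 genes and the study's filter gave 17 in place of 10, and for a change with the day DESeq2 called 6 in place of 0. With 3 libraries a group and levels of a few reads, Nrg1, Areg, Ereg and Erbb4 are at the limit of this depth.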

Other observations

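Of the 3 neighbours on chromosome 5, Ereg had its 3 highest levels in bridge libraries, with 293, 238 and 60 reads in a pool of day 6, a nerve of day 10 and a nerve of day 4. Areg and Ereg were found together in 1 library, a dSC nerve of day 2 with 12 and 4 reads. Among the tested members, group means of the single nerves correlated by r = 0.648 for Nrg1 and Egfr and by -0.36 for Nrg1 and Erbb3, given as a description over 11 groups.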
